A study of Ovis aries with 30 samples.

Results

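Brown adipose tissue (BAT) and thyroid tissue were compared for how differently they responded to cold in the same newborn Romney lambs, over 24 of the 30 libraries of the series. The libraries were those named as cold or ambient, so that 6 lambs kept at 4 °C (cold) and 6 lambs kept at 20–22 °C (ambient temperature, AT) each gave 1 BAT library from the fat around the kidneys and 1 thyroid library. The lambs carried no engineered allele and received no agent, were twins of which 1 per dam was taken, came indoors within a day of birth, and stayed in pens with their dams for 2 days at the given temperature. The other 6 libraries came from 3 lambs sampled at the start, which were 2 days younger and served here only as values beside the results. For each lamb the log2 level of a gene in thyroid tissue was subtracted from that in BAT, and the differences of the 6 cold lambs were compared with those of the 6 AT lambs. The resulting tissue by temperature interaction is positive where these per-lamb differences were higher in the cold than in the AT lambs, and negative in the opposite case. It was fitted within lambs, so its size and sign need not match the difference between the log2 fold changes (log2FC) of BAT and thyroid tissue. Of the 28524 genes in the table, 15133 had at least 10 reads in at least 6 libraries of each tissue and were tested.

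BAT makes heat in newborn ruminants by uncoupling respiration from ATP synthesis through UCP1, under sympathetic control, and lambs lose much of this capacity early in life while the depot turns into white fat. The thyroid gland supplies thyroxine, which deiodinase DIO2 in BAT converts to the active hormone that supports this heat production. A comparison of both tissues in the same animal separates what differs between the tissues from what both share. Such a difference can come from either tissue.

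The libraries of these lambs held 31556500 to 37025998 counts in BAT and 27222526 to 30124871 in thyroid tissue, and 2 unnamed genes, LOC114112617 and LOC114115287, took 43.8% to 76.5% of the counts in BAT and 5.95% to 14.9% in thyroid tissue. The tissue labels matched their markers. The summed normalized count of 11 markers of thyroid follicular cells was 1406190 to 2874010 in thyroid tissue and 150 to 1734 in BAT, and that of 10 adipocyte markers was 31262 to 130349 in BAT and 2857 to 13645 in thyroid tissue. The thyroid library of AT lamb 240 stood apart, with a summed count of 5138810 over the 25 skeletal muscle markers in the table against 802 to 6924 in the other 11 lambs. The BAT library of AT lamb 245 had the lowest adipocyte sum, and the highest size factor, 1.77 against a lowest of 0.561. Its sum of 9 fibroblast markers, 195077, was the highest in BAT, against up to 111616 in the cold lambs. Values that move with lamb 240 are given without it as well where the change is large. Values without lamb 245 are given by name only for HCRTR1 and the numbers of genes called. The gene lists were not taken without lamb 245.

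Cold and AT lambs differed more in BAT than in thyroid tissue. A gene was called where its log2FC reached a size of 1 and its adjusted p by edgeR lay under 0.05. In BAT 34 genes were called, 18 higher and 16 lower under cold, or 0.225% of the genes tested. In thyroid tissue 0 genes passed (0%, lowest edgeR adjusted p = 0.611), with 903 genes (5.97%) at an unadjusted p under 0.05 against 1947 genes (12.9%) in BAT, and DESeq2's Wald test called 7 genes in thyroid tissue and 150 in BAT. The interaction, which tests the difference between the tissues itself, was called for 1 gene, the orexin receptor gene HCRTR1 (0.00661% of the genes tested). At an unadjusted p under 0.05 stood 1135 genes (7.50%), 390 with a positive interaction (2.58%) and 745 with a negative one (4.92%). This split depended on the scaling, since with TMM factors it was 671 positive against 530 negative, and the median interaction over all genes moved from -0.09 to 0.000574. DESeq2 called 72 genes. The per-lamb differences of the 6 cold and the 6 AT lambs did not overlap for 66 genes (0.436%).

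Beside HCRTR1, the 9 named genes of lowest p with a positive and the 10 with a negative interaction are described below. Unnamed genes, whose symbols start with LOC, were left out of this choice. All 19 had an edgeR adjusted p between 0.088 and 0.17, so that none of them was called. For all 20 genes the BAT log2FC was the larger in size, and for 15 of them the thyroid log2FC had the opposite sign. The BAT levels of cold and AT lambs did not overlap for 12 of the 20, the thyroid levels for 0, and 11 of the 20 were among the 34 genes called in BAT. These counts describe genes that were picked by the interaction and are no separate evidence for it.

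**Figure D1:**
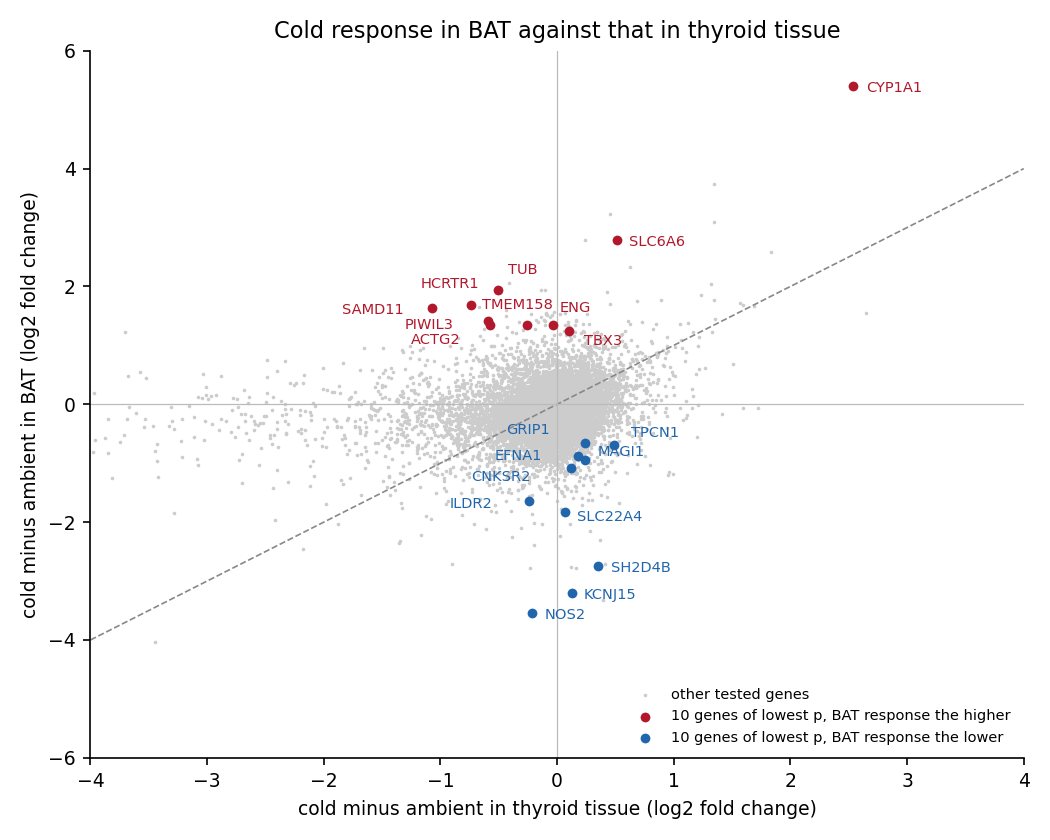
Log2 fold change of cold over AT lambs in BAT (vertical axis) against that in thyroid tissue (horizontal axis) for the tested genes, 60 of which lie outside the axes. The dashed line marks equal responses. HCRTR1 and the other 9 genes with a positive interaction (red) lie above it and the 10 with a negative interaction (blue) below it, most of them near 0 on the thyroid axis.

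HCRTR1 encodes a receptor for orexins, hypothalamic peptides that govern wakefulness, feeding and energy use. It lies on chromosome 2 from 251473839 to 251484194 on the minus strand of Oar_rambouillet_v1.0, with no overlapping gene in the table. Its normalized count in BAT was 218 to 747 in the cold lambs (median 523) and 75.5 to 289 in the AT lambs (median 135). In thyroid tissue it was 12.5 to 44.6 under cold (median 19.6) and 19.9 to 52.5 under AT (median 41.2). BAT levels were thus mostly higher under cold and thyroid levels mostly lower, with some overlap in each tissue. The log2 BAT minus log2 thyroid difference was 3.77 to 5.14 in the cold lambs (median 4.33) and 1.09 to 2.58 in the AT lambs. These ranges did not overlap, and the lowest cold lamb lay above the highest AT lamb. HCRTR1 rose in BAT by a log2FC of 1.69 ± 0.32 (SE, n = 6 and 6, edgeR adjusted p = 0.0413). Its thyroid log2FC was -0.74 ± 0.36 (edgeR unadjusted p = 0.0585). The interaction was 2.50 ± 0.32 (edgeR adjusted p = 0.0209, exact permutation p = 0.00216 over 924 splits of the lambs, the smallest they can give). For this and the other genes picked by the interaction, the permutation p is unadjusted. It rests on the per-lamb differences that picked them and is no separate support. Without AT lamb 240 the interaction was 2.59 (edgeR adjusted p = 0.00904) and without AT lamb 245 it was 2.53 (edgeR adjusted p = 0.0281). The adjusted p passed 0.05 when lamb 232, 234, 235, 241 or 243 was left out, at 0.0917, 0.0606, 0.0764, 0.0950 and 0.0994 by edgeR, with values between 2.36 and 2.54. In BAT alone the call of HCRTR1 was lost without lamb 232, 233, 234, 235, 239, 240, 241, 243 or 244, with log2FC of 1.54 to 1.75 and edgeR adjusted p-values up to 0.138. For the interaction the edgeR adjusted p was 0.141 in the fit that ignored that the tissues of a lamb were paired, and 0.0510 with the RNA integrity number as a covariate.

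CYP1A1, a cytochrome P450 and the best-known target of the aryl hydrocarbon receptor, was the gene with the largest cold response in BAT among those called. Its normalized count in BAT was 235 to 3135 under cold (median 830) and 1.66 to 82.3 under AT (median 25.6). In thyroid tissue it was 511 to 4460 under cold (median 1851) and 20.6 to 713 under AT (median 344). The cold lambs thus stood higher in both tissues, without overlap in BAT and with overlap in thyroid tissue. CYP1A1 rose in BAT by a log2FC of 5.41 ± 0.78 (edgeR adjusted p = 0.0227), and the thyroid log2FC was 2.54 ± 0.71 (edgeR unadjusted p = 0.00402, adjusted p = 0.821). The interaction was 2.83 ± 0.47 (edgeR adjusted p = 0.0880, exact permutation p = 0.00216). Over 24 alternative settings it was 2.55 to 3.13 and passed an adjusted p of 0.05 in 2, among them without cold lamb 242 (edgeR adjusted p = 0.0154), with adjusted p-values up to 0.496. Per lamb, BAT minus thyroid was -2.42 to 0.19 under cold and -4.98 to -2.99 under AT, without overlap. Since each tissue was scaled by itself, a difference of 0 does not mark equal levels.

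SLC6A6, the taurine transporter, had a normalized count in BAT of 2256 to 4127 under cold (median 3202) and 117 to 1567 under AT (median 263). In thyroid tissue the counts were 677 to 1472 and 441 to 1030. The groups were apart in BAT only. Its BAT log2FC was 2.79 ± 0.52 (edgeR adjusted p = 0.0384), its thyroid log2FC 0.51 ± 0.24 and its interaction 2.76 ± 0.48 (edgeR adjusted p = 0.0880). The interaction was 2.28 to 3.17 over the alternative settings, with edgeR adjusted p-values up to 0.284. It passed 0.05 in 2 of 24, among them without AT lamb 236 (edgeR adjusted p = 0.00472), whose BAT count was the highest of its group.

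ENG encodes endoglin, a co-receptor of endothelial cells for ligands of the transforming growth factor β and bone morphogenetic protein (BMP) family. BAT held 8141 to 16109 normalized counts under cold (median 11462) and 2735 to 7125 under AT (median 4418), while thyroid tissue held 3336 to 5160 and 3540 to 5003. The BAT groups did not overlap and the thyroid groups overlapped almost fully. ENG rose in BAT (log2FC 1.35 ± 0.23, edgeR adjusted p = 0.0242), its thyroid log2FC was -0.03 ± 0.12 and its interaction 1.42 ± 0.26 (edgeR adjusted p = 0.0936). The unnamed gene LOC114113875, which overlaps ENG in the annotation, was called in BAT too, and it lies on the other strand, so that whether their reads were kept apart depends on the strand setting of the counting, which is not given in the sources used here. The summed count of 12 endothelial markers in BAT was 60674 to 97209 under cold and 64763 to 89221 under AT, ranges that overlapped. In such bulk tissue more cells of a type and more RNA per cell cannot be told apart.

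TUB, the tubby gene linked to obesity, had 602 to 1341 normalized counts in BAT under cold and 163 to 518 under AT, against 122 to 174 and 134 to 439 in thyroid tissue. It rose in BAT by a log2FC of 1.94 ± 0.31 (edgeR adjusted p = 0.0227), and the interaction was 2.40 ± 0.44 (edgeR adjusted p = 0.0936), with 2.10 to 2.72 and adjusted p-values up to 0.344 over the alternatives, of which 2 of 24 passed 0.05. SAMD11 had 477 to 1118 counts in BAT under cold and 156 to 429 under AT. In thyroid tissue cold lambs held 64.5 to 145 and AT lambs 87.9 to 611 (log2FC -1.07 ± 0.42, edgeR unadjusted p = 0.0226). Its interaction of 2.45 ± 0.41 (edgeR adjusted p = 0.0880) was 2.07 without AT lamb 240 (edgeR adjusted p = 0.00532), in whose thyroid library the count was 611, and passed an adjusted p of 0.05 in 4 of 24 alternatives, with adjusted p-values up to 0.603. TBX3, a T-box transcription factor, had 1399 to 2848 counts in BAT under cold and 473 to 1135 under AT, and rose there by a log2FC of 1.25 ± 0.23 (edgeR adjusted p = 0.0384). In thyroid tissue its counts of 7614 to 10552 and 7379 to 9224 overlapped, and the interaction was 1.16 ± 0.23 (edgeR adjusted p = 0.141).

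The remaining 3 genes with a positive interaction were not called in BAT. ACTG2, a smooth muscle actin, had an interaction of 1.98 ± 0.35 (edgeR adjusted p = 0.0880), from 475 to 2199 normalized counts in BAT under cold against 171 to 749 under AT, and 51.0 to 175 against 100.5 to 239 in thyroid tissue. PIWIL3, a PIWI protein known from the germline, had an interaction of 2.12 ± 0.38 (edgeR adjusted p = 0.0880), with BAT counts of 116 to 389 under cold and 42.3 to 154 under AT. The membrane protein gene TMEM158 had an interaction of 1.70 ± 0.32 (edgeR adjusted p = 0.0965), with BAT counts of 168 to 369 under cold and 47.7 to 131 under AT. Its interaction was 1.57 to 1.95 over the alternatives, with edgeR adjusted p-values up to 0.284, and passed 0.05 in 3 of 24. BAT counts overlapped between the groups for ACTG2 and PIWIL3 but not for TMEM158.

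**Figure D2:**
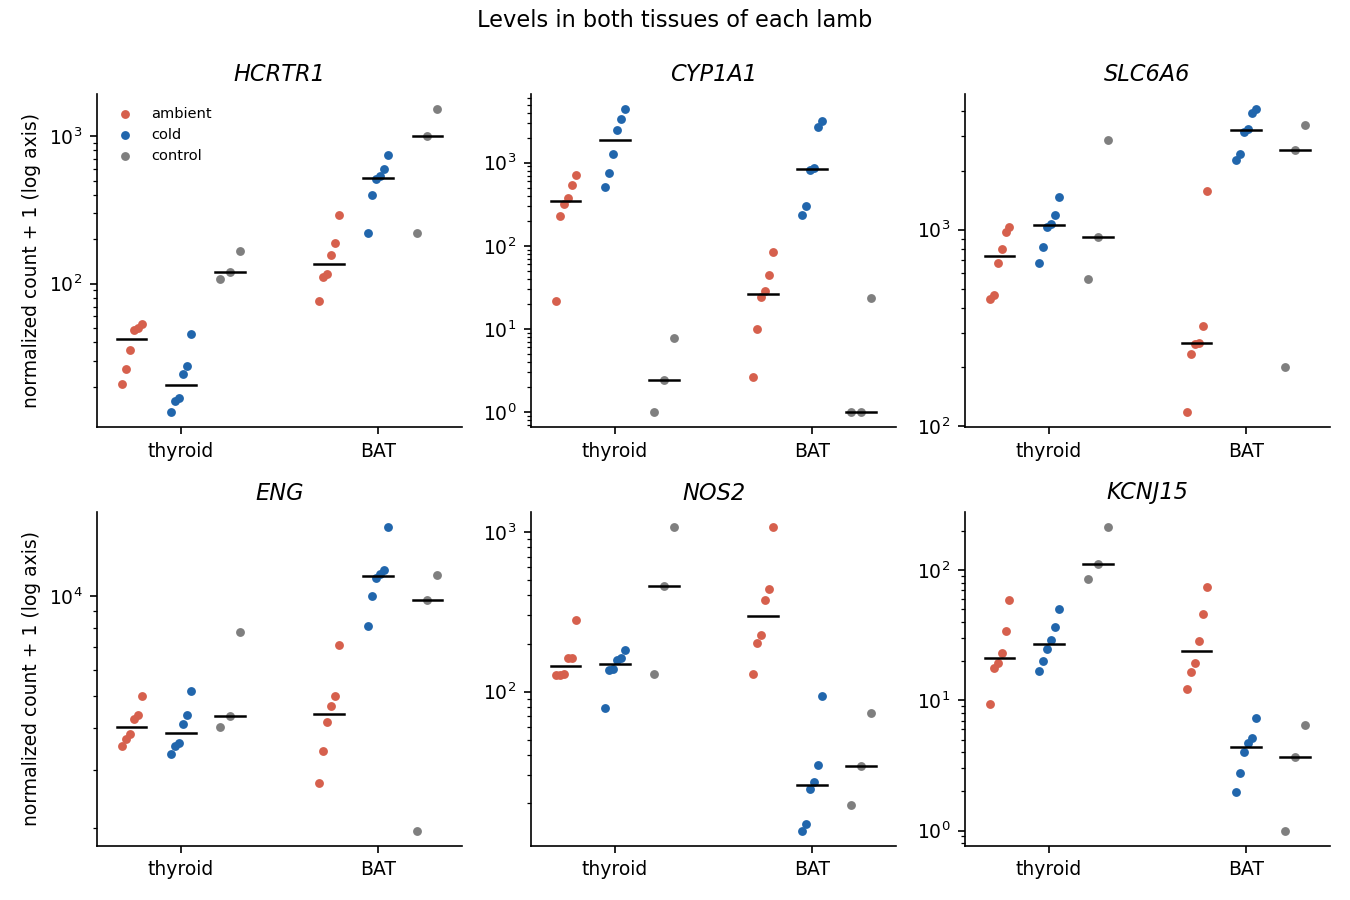
Normalized count + 1 on a log axis in thyroid tissue and BAT of the 6 AT (red), 6 cold (blue) and 3 start control lambs (grey), 1 point per library, with black bars at the group medians. In BAT the cold lambs lie above the AT lambs for CYP1A1, SLC6A6 and ENG and below them for NOS2 and KCNJ15 without overlap, while the thyroid groups overlap for all 6 genes shown.

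NOS2, the inducible nitric oxide synthase, had the lowest p of the genes with a negative interaction. Its normalized count in BAT was 12.5 to 93.0 under cold (median 24.9) and 128 to 1070 under AT (median 298). Its thyroid count was 77.4 to 181 under cold (median 147) and 126 to 281 under AT (median 144). The groups were apart in BAT and had nearly the same median in thyroid tissue. NOS2 fell in BAT (log2FC -3.54 ± 0.57, edgeR adjusted p = 0.0227), its thyroid log2FC was -0.21 ± 0.25, and its interaction was -3.32 ± 0.53 (edgeR adjusted p = 0.0880, exact permutation p = 0.00216). Over the alternatives the interaction was -3.73 to -3.09, with edgeR adjusted p-values up to 0.247, and passed 0.05 in 2 of 24, among them without cold lamb 244, whose per-lamb difference of -0.53 was the nearest to the AT lambs.

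KCNJ15, a subunit of an inwardly rectifying potassium channel, was a low gene in BAT, with 0.993 to 6.36 normalized counts under cold and 11.2 to 73.5 under AT. Its thyroid counts were 15.9 to 49.1 and 8.44 to 58.0. It fell in BAT by a log2FC of -3.20 ± 0.53 (edgeR adjusted p = 0.0242), and the interaction was -3.23 ± 0.56 (edgeR adjusted p = 0.0880). SH2D4B, an adaptor with an SH2 domain, also low, fell in BAT from 15.6 to 126 counts under AT to 4.97 to 19.5 under cold, with a slight overlap (log2FC -2.74 ± 0.50, edgeR adjusted p = 0.0384), with an interaction of -3.05 ± 0.65 (edgeR adjusted p = 0.170). ILDR2, an immunoglobulin-like receptor of cell junctions, had 112 to 227 counts in BAT under cold and 287 to 989 under AT. It fell there by a log2FC of -1.65 ± 0.27 (edgeR adjusted p = 0.0242), and the interaction was -1.39 ± 0.27 (edgeR adjusted p = 0.137).

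The other 6 genes with a negative interaction were not called in BAT. EFNA1, a ligand of ephrin receptors, had 704 to 1304 normalized counts in BAT under cold and 1254 to 2273 under AT, and an interaction of -1.11 ± 0.20 (edgeR adjusted p = 0.0880). TPCN1, a cation channel of endosomes and lysosomes, had 357 to 541 counts in BAT under cold and 598 to 938 under AT, and 4987 to 9719 against 3980 to 6939 in thyroid tissue. Its thyroid log2FC of 0.49 ± 0.20 (edgeR unadjusted p = 0.0285) was opposite to that in BAT, and its interaction was -1.16 ± 0.22 (edgeR adjusted p = 0.0936). MAGI1, a scaffold of tight junctions, SLC22A4, a transporter of ergothioneine and carnitine, and the synaptic scaffold genes GRIP1 and CNKSR2 had interactions of -1.13 ± 0.23, -1.87 ± 0.39, -0.90 ± 0.19 and -1.18 ± 0.26, at edgeR adjusted p-values of 0.141 to 0.17. MAGI1, GRIP1 and CNKSR2 overlap other genes in the annotation, as do SAMD11 and TUB above. Over the 20 genes the per-lamb differences did not overlap for 17, the exceptions being TUB, SH2D4B and CNKSR2. Over all tested genes the share was 0.436%, but the 20 were picked by the interaction on these same differences. The count is thus no separate evidence.

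**Figure D3:**
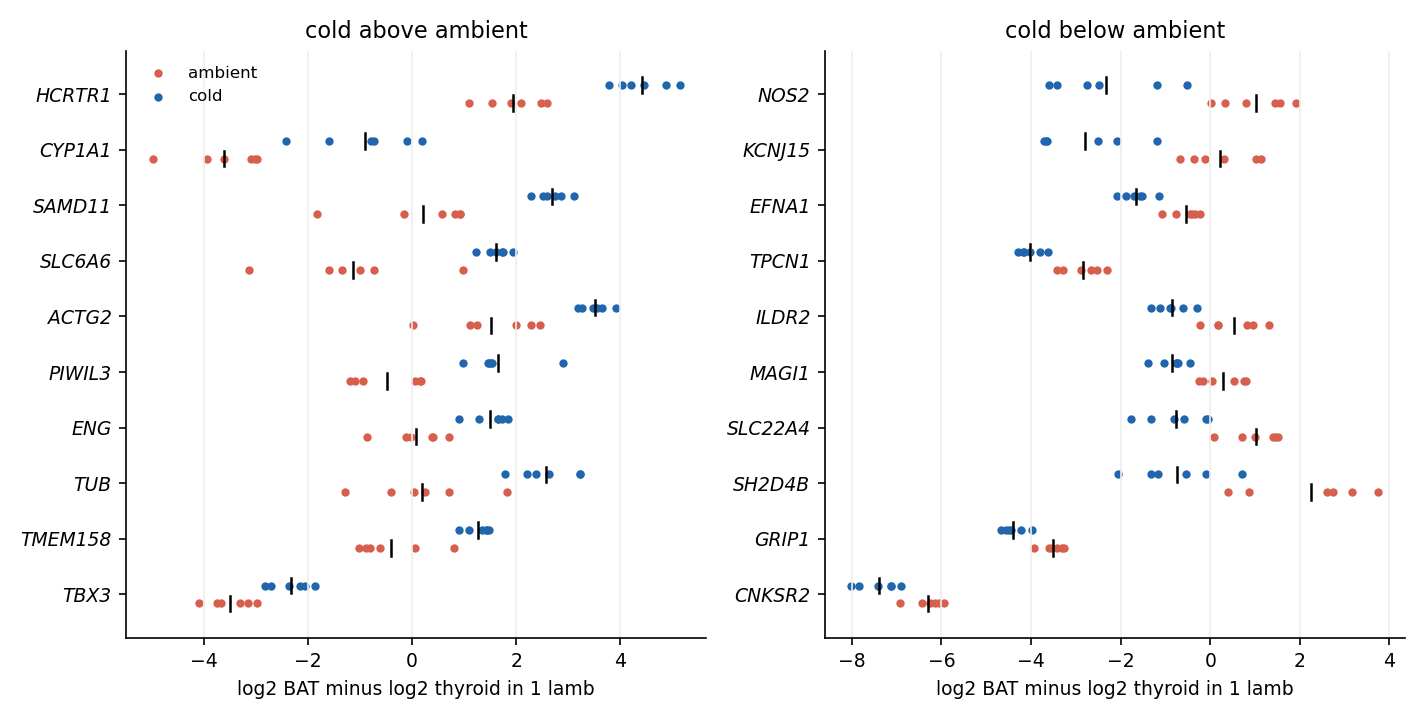
Log2 BAT minus log2 thyroid of each AT (red) and cold (blue) lamb, with black bars at the means. Shown are the 10 named genes of lowest p with a positive (left) and a negative (right) interaction. Cold and AT lambs are apart for 17 of the 20 genes, which were picked by the interaction on these differences, and overlap for TUB, SH2D4B and CNKSR2.

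The 34 genes called in BAT were then followed into thyroid tissue. The median size of their log2FC was 1.53 in BAT and 0.31 in thyroid tissue, and the thyroid log2FC had the opposite sign for 11. In thyroid tissue 6 of the 34 had an unadjusted p under 0.05, against 5.97% of all tested genes. Since BAT enters the interaction, the 30 of 34 genes with an interaction at an unadjusted p under 0.05 are no independent support. The sizes of these 34 differences were steady when a lamb was left out, at 0.782 to 1.34 times the value with all lambs and with the same sign for all 34 genes in all 12 omissions. The number of calls was not. It was 0 without lamb 232, 233, 235, 239 or 240, where the lowest edgeR adjusted p was 0.0535 to 0.0788 and 1476 to 2005 genes had an unadjusted p under 0.05, and 112 without lamb 245.

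Further genes called in BAT are named here after their values were seen, with no test of what they share. ID1, an inhibitor of helix-loop-helix factors that BMPs induce, had 2466 to 4148 normalized counts in BAT under cold and 743 to 1668 under AT, without overlap, and 436 to 1499 and 575 to 1322 in thyroid tissue. It rose in BAT by a log2FC of 1.35 ± 0.20 (edgeR adjusted p = 0.0227), and its interaction was 1.31 ± 0.34 (edgeR unadjusted p = 0.00178, adjusted p = 0.318). The inhibitory SMAD7 had 352 to 808 counts in BAT under cold and 151 to 315 under AT (log2FC 1.36 ± 0.22, edgeR adjusted p = 0.0227), and an interaction of 1.13 ± 0.28 (edgeR adjusted p = 0.298). BMP6, a ligand, had 429 to 866 counts in BAT under cold and 116 to 333 under AT (log2FC 1.34 ± 0.25, edgeR adjusted p = 0.0384), and 30.1 to 85.7 and 38.2 to 91.2 in thyroid tissue, where the ranges overlapped.

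ID2 and SMAD6 were closer between the tissues. ID2 rose in BAT by 1.17 ± 0.18 on the log2 scale (edgeR adjusted p = 0.0227) with a thyroid log2FC of 0.55 ± 0.21 (edgeR unadjusted p = 0.0192). SMAD6, the other inhibitory SMAD, rose in BAT by 1.07 ± 0.21 (edgeR adjusted p = 0.0480) with a thyroid log2FC of 0.37 ± 0.15 (edgeR unadjusted p = 0.0238). Their interactions were 0.61 ± 0.23 and 0.76 ± 0.27, at edgeR adjusted p-values of 0.559 and 0.531. The kinase gene SGK1, induced by glucocorticoids, rose in BAT (log2FC 1.39 ± 0.21, edgeR adjusted p = 0.0227) from 474 to 1109 counts under AT to 1562 to 2440 under cold, and its thyroid log2FC was -0.33 ± 0.34. The receptor tyrosine kinase gene KIT fell in BAT (log2FC -1.53 ± 0.27, edgeR adjusted p = 0.0331), as did CPT1C, a carnitine palmitoyltransferase best known from neurons (log2FC -1.40 ± 0.22, edgeR adjusted p = 0.0227). The thyroid log2FC of KIT was -0.21 ± 0.25 and that of CPT1C -0.29 ± 0.24.

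TMEM182, a membrane protein gene of muscle, had the larger difference in thyroid tissue. It fell in BAT (log2FC -2.74 ± 0.52, edgeR adjusted p = 0.0413), and its thyroid log2FC was -6.38 ± 1.97 (edgeR unadjusted p = 0.00761). Its thyroid counts were 4.24 to 12.9 under cold and 5.02 to 4482 under AT, the highest in lamb 240, and without that lamb the thyroid log2FC was -0.59. The skeletal muscle markers moved with it. All 13 that were tested had a thyroid unadjusted p under 0.05 with a median thyroid log2FC of -8.70, and without lamb 240 the median was 0.32 and 0 of 13 had such a p.

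The start controls took no part in choosing the genes, and their levels are set beside those of the treated lambs. On the log2 scale, the BAT medians of the cold and the AT lambs were compared for nearness to the control median. The cold median was the nearer for 17 of the 20 named genes of lowest interaction p, the exceptions being CYP1A1, SAMD11 and SLC22A4. Over all tested genes this held for 58.6%, and for 26 of the 34 genes called in BAT. In thyroid tissue it held for 10 of the 20 genes and for 54.1% of all tested genes. SLC6A6 in BAT was 200 to 3417 in the controls (median 2540), ENG 1965 to 11533 (median 9723), NOS2 18.6 to 72.9 (median 33.1), KCNJ15 0 to 5.51 and ILDR2 35.1 to 122. For these genes the control medians lay nearer to the cold lambs, although the lowest control for SLC6A6 and ENG lay among or below the AT lambs. CYP1A1 was at 0 to 22.7 in BAT and 0 to 6.79 in thyroid tissue of the controls, below all treated lambs in thyroid tissue. In BAT it was listed at 0 in controls 237 and 246, below all treated lambs, and only control 238, at 22.7, lay among the AT lambs. Control lamb 238 stood apart from the other controls, with a summed adipocyte count in BAT of 357464 against 110886 and 113142, a summed endothelial count of 20914 against 97876 and 92299, and a summed parathyroid count in thyroid tissue of 55347. The study left a control sample of each tissue out for outlying counts and did not name it in the sources used here. Without lamb 238 the cold median in BAT was the nearer for 18 of the 20 genes, for 29 of the 34 called in BAT and for 58.6% of all genes, and in thyroid tissue for 11 of the 20. It was lamb 238 that gave the lowest control value of SLC6A6, ENG, NOS2, KCNJ15 and ILDR2. No test was run against the controls, whose age differed too.

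The study singled out 38 genes of thermogenesis and fat whitening, all of which were tested. None was called for the interaction. An unadjusted p under 0.05 was reached by 3 of 38 (against 7.50% of all genes), CYP1A1, BMP8B and NOS3, all with a positive interaction. The median interaction of the 38 was 0.36, and 0.17 without AT lamb 240, against -0.09 over all tested genes. Of the 38, 27 were positive, against 37.3% of all tested genes. The median log2FC of the 38 was -0.14 in BAT and -0.11 in thyroid tissue. The study took the list from earlier literature.

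UCP1, the uncoupling protein itself, had 2969 to 11892 normalized counts in BAT under cold (median 8561) and 203 to 12940 under AT (median 3541). Its thyroid counts were 3.18 to 166 and 9.97 to 59.2. The groups overlapped in both tissues, and the start controls, at 20790 to 83717 in BAT, lay above all treated lambs. Its BAT log2FC was 0.77 ± 0.66, its thyroid log2FC 0.37 ± 0.88 and its interaction 1.87 ± 0.96 (edgeR adjusted p = 0.686, exact permutation p = 0.0693), with a range of 0.41 to 2.62 over the alternative settings. PPARGC1A, the coactivator of mitochondrial biogenesis, had an interaction of 0.90 ± 0.44 (edgeR adjusted p = 0.677), and DIO2 one of 1.08 ± 0.96 (edgeR adjusted p = 0.819). BMP8B, a ligand that raises thermogenesis in brown fat, was low in both tissues, with BAT counts of 10.4 to 29.8 under cold and 3.39 to 28.8 under AT, and had an interaction of 1.26 ± 0.50 (edgeR adjusted p = 0.587). NOS3, the endothelial nitric oxide synthase, had one of 0.48 ± 0.17 (edgeR adjusted p = 0.531), opposite in sign to that of NOS2.

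**Figure D4:**
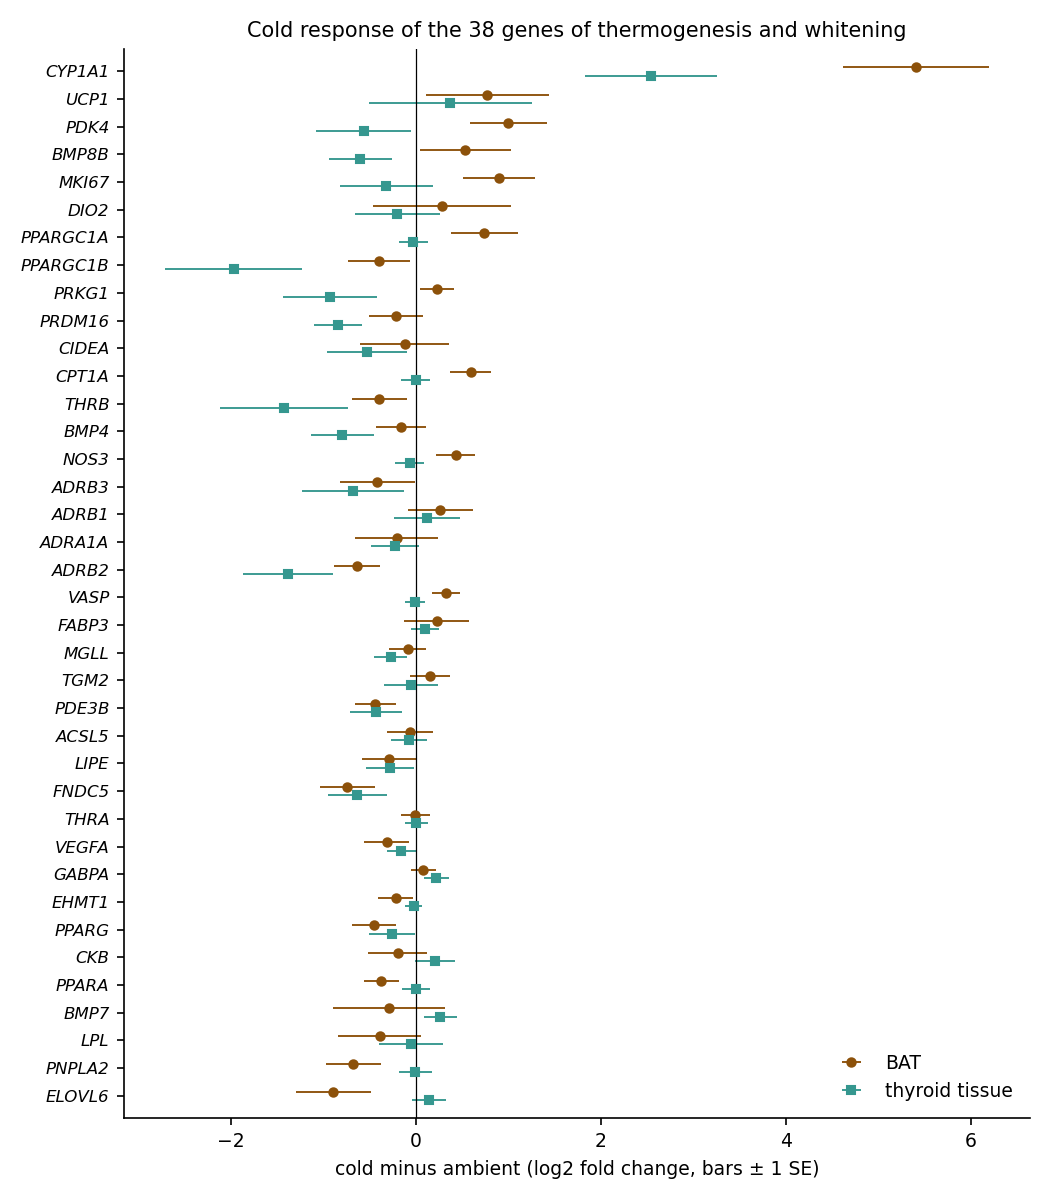
Log2 fold change of cold over AT lambs in BAT (brown circles) and thyroid tissue (green squares) for the 38 genes of the study, with bars of 1 SE, ordered by the interaction. CYP1A1 stands apart with 5.41 in BAT and 2.54 in thyroid tissue, with a larger BAT value than any other gene shown.

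Of the other lists, those of cell division and smooth muscle held the most genes with a positive interaction at an unadjusted p under 0.05. In the cell cycle list 48 of 53 tested genes had a positive interaction, against 37.3% of all tested genes. The median was 0.50 (without lamb 240 0.38), from a median log2FC of 0.55 in BAT and -0.14 in thyroid tissue. An unadjusted p under 0.05 was reached by 5 of these 53 genes, all positive (2.58% of all genes were so): the mitotic phosphatase gene CDC25C (1.43 ± 0.55), the spindle motor gene KIF11 (1.23 ± 0.48), the centromere genes CENPF (1.37 ± 0.60) and CENPA (1.27 ± 0.59), and the replication factor gene PCLAF (1.46 ± 0.66). None passed the adjustment, the lowest edgeR adjusted p being 0.574, and without lamb 240 the number was 2.

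The smooth muscle list had 8 of 9 genes positive, against 37.3% of all tested genes (median 0.86, without lamb 240 0.73). ACTA2 (1.67 ± 0.39), CNN1 (1.89 ± 0.63), TAGLN (1.11 ± 0.35) and RGS5 (0.86 ± 0.40) were positive at an unadjusted p under 0.05 (2.58% of all genes were so). The lowest edgeR adjusted p of the list was 0.222, and without lamb 240 the number was 3. ACTA2, the actin of vascular smooth muscle, had 3255 to 11360 normalized counts in BAT under cold and 1856 to 4119 under AT, and 633 to 1617 and 1174 to 2517 in thyroid tissue. The sum of the 9 markers in BAT was 18475 to 36060 under cold and 12445 to 20860 under AT. In thyroid tissue it was 8822 to 14085 under cold and 9193 to 163824 under AT, the highest in lamb 240. None of these markers was at 0 in all libraries. The part of cell number in the values of ACTG2 above was not tested. Of the 12 endothelial markers, the VEGF receptor genes KDR (0.52 ± 0.19) and FLT1 (0.91 ± 0.31) had a positive interaction at an unadjusted p under 0.05. The lowest edgeR adjusted p of these markers was 0.506, and 9 of 12 were positive, against 37.3% of all tested genes.

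The hypoxia, glycolysis and glucocorticoid target lists held 2, 1 and 1 genes with a positive interaction at an unadjusted p under 0.05. Of all tested genes 2.58% were so. ANKRD37 (2.32 ± 0.64) and the peptide hormone gene APLN (1.61 ± 0.44) of the 21 hypoxia genes, ALDOC (1.30 ± 0.36) of 28 glycolysis genes and SGK1 (1.68 ± 0.45) of 16 glucocorticoid receptor targets had a positive interaction, at edgeR adjusted p-values of 0.332, 0.332, 0.332 and 0.318.

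**Figure D5:**
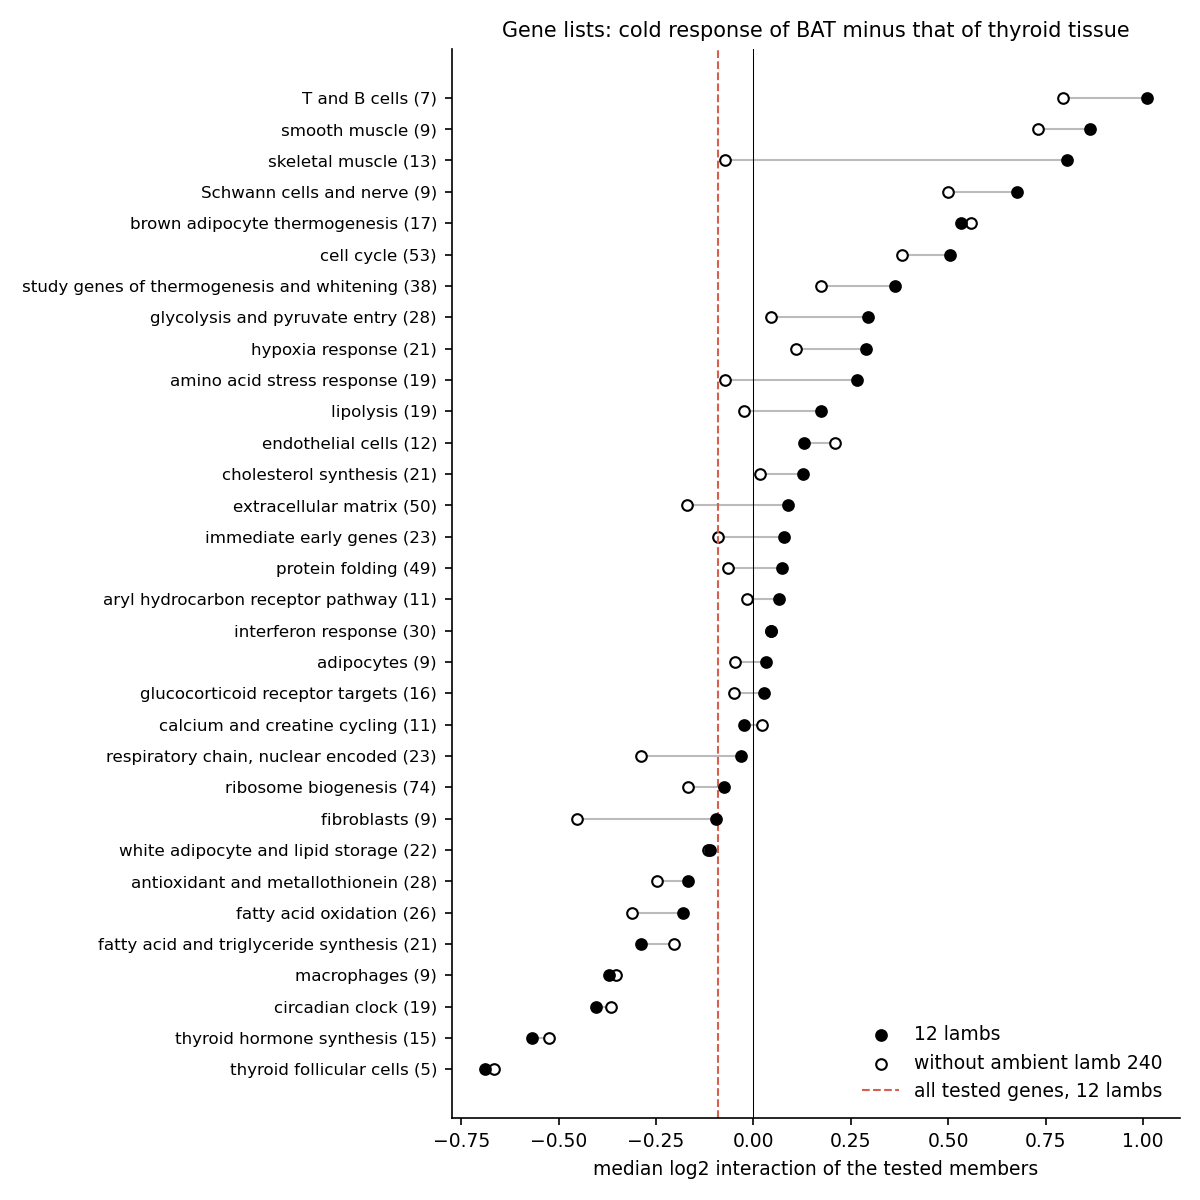
Median log2 interaction of the tested members of each gene list with at least 5 of them (their number in parentheses), over all 12 lambs (filled circles) and without AT lamb 240 (open circles). The dashed red line marks the median of all tested genes, -0.09. The skeletal muscle list moves from 0.81 to -0.07 without that lamb, while the cell cycle, smooth muscle and thyroid hormone synthesis lists stay on their side of 0.

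On the negative side, 15 of the 24 listed genes of thyroid hormone synthesis were tested, of which 4 were positive, against 37.3% of all tested genes. The median was -0.57 (without lamb 240 -0.53), from a median log2FC of -0.28 in BAT and 0.19 in thyroid tissue. DUOXA2 (-1.23 ± 0.44), CTSD (-0.60 ± 0.20) and CTSK (-0.46 ± 0.21) had an unadjusted p under 0.05 (3 of 15, where 4.92% of all genes were so). DUOXA2 is the maturation factor of the oxidase that supplies hydrogen peroxide. In the thyroid, the lysosomal proteases CTSD and CTSK release hormone from thyroglobulin. The log2FC of CTSD was -0.57 in BAT and 0.05 in thyroid tissue, and that of DUOXA2 was -1.06 and 0.27. DUOXA2 in thyroid tissue was 4167 to 7150 under cold and 2937 to 5542 under AT, and in BAT, at 13.2 to 61.5 and 19.2 to 131, it was near the low end of what was counted. Thyroid levels alone differed at an unadjusted p under 0.05 for 2 of the 15 genes, against 5.97% of all tested genes.

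Of the 28 antioxidant genes, 4 had a negative interaction at an unadjusted p under 0.05 (4.92% of all genes were so). The lowest edgeR adjusted p of the list was 0.531. For 3 of these 4 genes the larger difference was in thyroid tissue. HMOX1, the heme oxygenase, had a thyroid log2FC of 1.59 and a BAT log2FC of -0.06 (interaction -1.21 ± 0.46). GSR (-0.69 ± 0.24) and SOD1 (-0.57 ± 0.24) had thyroid log2FC of 0.50 and 0.38, and PRDX2 (-0.42 ± 0.16) one of -0.01. NQO1, called in BAT (log2FC 1.01 ± 0.19, edgeR adjusted p = 0.0437), was the one positive gene of the list at that p (0.54 ± 0.24), and without lamb 240 the counts were 7 negative and 0 positive. Summed macrophage markers in thyroid tissue were 3516 to 9749 under cold and 3081 to 6355 under AT, and their part in the thyroid values was not tested.

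The lists of BAT fuel use held few genes at an unadjusted p under 0.05, a p that 7.50% of all tested genes had. In lipolysis 0 of 19, in fatty acid oxidation 0 of 26 and in the respiratory chain 0 of 23 genes had an unadjusted p under 0.05, with medians of 0.17, -0.18 and -0.03. Without the muscle-rich thyroid library of lamb 240 these medians were -0.02, -0.31 and -0.29. In that fit 1, 1 and 2 genes had a negative interaction at such a p, as had 871 of all 15133 tested genes. Among 17 brown adipocyte genes 13 were positive (median 0.53), against 37.3% of all tested genes. Their median log2FC was -0.12 in BAT and -0.25 in thyroid tissue, so the positive median came with no rise of the BAT median. The glycerol kinase gene GK alone had such a p (1.06 ± 0.40), and without lamb 240 the number was 2. The brown adipocyte list was not taken without AT lamb 245, whose summed adipocyte count in BAT, 31262, was the lowest. The part of that library in the positive median was thus not tested. Among 22 genes of white adipocytes 10 were positive (median -0.11). Of the cold-inducible RNA-binding genes CIRBP had an interaction of -0.51 ± 0.19 (edgeR adjusted p = 0.559), with log2FC of -0.35 in BAT and 0.14 in thyroid tissue. Of the 19 clock genes 6 were positive, near the share over all tested genes (median -0.41), with TEF (-0.53 ± 0.19) at an unadjusted p under 0.05. The chemokine gene CXCL10 (-1.51 ± 0.45) was the one gene of 30 interferon response genes at such a p, with log2FC of -0.23 in BAT and 1.10 in thyroid tissue.

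Lists of other cells that the thyroid samples can hold went with single genes. The nerve markers S100B (1.42 ± 0.49) and L1CAM (1.44 ± 0.40) had a positive and MBP (-1.01 ± 0.44) a negative interaction at an unadjusted p under 0.05, and the summed nerve markers in thyroid tissue were 2058 to 2762 under cold and 2267 to 5121 under AT, the highest in lamb 240. The T cell gene CD3E (1.14 ± 0.46) had a thyroid log2FC of -1.999, with summed T and B cell markers in thyroid tissue of 498 to 996 under cold and 357 to 3271 under AT, the highest in lamb 236. GATA3, a marker of parathyroid (1.63 ± 0.66), had a thyroid log2FC of -1.87, with summed parathyroid markers of 156 to 2833 and 261 to 2963. The sums of C cell markers in thyroid tissue ran from 1069 to 202937 under cold and from 315 to 298006 under AT. How much of each gene's interaction goes with these amounts of other cells was not tested.

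The remaining lists held few genes at an unadjusted interaction p under 0.05. SQLE (0.81) and FDFT1 (-0.54) were those of 21 cholesterol synthesis genes (median 0.13), SCD (-1.22) that of 21 fatty acid synthesis genes (median -0.29), and APLN and SFRP5 (-1.64) those of the white adipocyte list. CYP1A1 and NQO1 were those of 11 genes of the aryl hydrocarbon receptor pathway (median 0.07), VLDLR (-0.79) that of 19 amino acid stress genes (median 0.27), and EGR3 (-1.25) and KLF2 (0.58) those of 23 immediate early genes (median 0.08). ERO1A (0.40) of 49 protein folding genes, DDX52 (-0.51) of 74 ribosome biogenesis genes, COL18A1 (0.72) and COL15A1 (-0.57) of 50 matrix genes and ATP2A3 (-1.003) of 11 genes of calcium and creatine cycling completed the pathway lists, whose medians were 0.07, -0.08, 0.09 and -0.02. The medians of the glycolysis, hypoxia, glucocorticoid and interferon lists were 0.29, 0.29, 0.03 and 0.05. Without lamb 240 these 4 were 0.04, 0.11, -0.05 and 0.05, while the cholesterol, amino acid stress, immediate early, protein folding, ribosome biogenesis and matrix medians were 0.02, -0.07, -0.09, -0.07, -0.17 and -0.17, and that of the aryl hydrocarbon receptor list was -0.02. Fatty acid synthesis (-0.20) and calcium and creatine cycling (0.02) completed these, and the median over all genes was then -0.15.

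Of the cell type lists, MARCO (1.80, edgeR adjusted p = 0.527) was that of 9 macrophage genes, of which 2 were positive (median -0.37). Its BAT count under cold had a mean of 247 and an SD of 458. The summed macrophage markers in BAT under cold were 1401 to 11125 (median 2534), the highest in lamb 239. CD79A (1.01) and CD3E were those of 7 T and B cell genes (median 1.01, without lamb 240 0.80 and 0 at such a p). DDC (1.90) was that of 4 genes of adrenal medulla and sympathetic nerve (median 0.13). The 9 fibroblast and 9 adipocyte genes had 0 such genes (medians -0.10 and 0.03), as had the few tested markers of neutrophils, thymus, erythroid cells, adrenal cortex and C cells (medians -0.13, 1.24, 0.75, -0.99 and 0.70) and the 3 reference genes (median -0.15). Without lamb 240 the medians of the fibroblast and adipocyte lists were -0.45 and -0.05, with 1 fibroblast gene at such a p. No kidney marker was tested. The medians of the endothelial, nerve, parathyroid and follicular cell lists were 0.13, 0.68, 0.40 and -0.69, and without lamb 240 0.21, 0.50, 0.27 and -0.67.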

How the data were processed

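RNA-seq libraries of BAT and thyroid tissue were analysed from the raw counts per gene that the authors deposited, made, per the labels and the study's methods, with FastQC 0.11.9, Trimmomatic 0.39, STAR 2.7.7a and featureCounts (Subread 2.0.0) on Oar_rambouillet_v1.0. Reads that map to several places were counted, so near-identical genes share reads, and the strand setting is not given in the sources used here. Gene names are those of the table, of which 22250 of 28524 were found in the RefSeq table of assembly ARS-UI_Ramb_v3.0.

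A gene was kept when 6 or more libraries of each tissue held 10 or more of its reads. Counts were scaled per tissue by size factors from the study's 3 reference genes (HUWE1, RPL19, ACTB) and are printed as normalized counts. The interaction was tested with edgeR 4.0.16 (R 4.3.3), with lamb as a block, tissue, and tissue by temperature as terms (quasi-likelihood F-test, robust, 10 residual degrees of freedom), and cold against AT per tissue over 12 libraries. Genes with |log2FC| ≥ 1 and a Benjamini-Hochberg adjusted p under 0.05 over all 15133 genes were called. Per-lamb differences, with a pseudocount of 1, were tested by a two-sided exact permutation test over 924 splits. Errors are SE of the fit.

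The block rests on both tissues coming from the same lamb. The deviations of BAT and thyroid tissue from their group means correlated at 0.0171 to 0.375 within a lamb, over 0.1 in 11 of 12 lambs. In these 11 the BAT of a lamb correlated more with its own thyroid tissue than with that of any other lamb of its group. The exception was AT lamb 240, at 0.0171 against up to 0.0959 with another AT lamb. The scripts were tested on simulated data. Named genes were those called, filled up to 10 in each direction by the lowest p among genes whose symbol does not start with LOC. The study's genes, the member of lowest p in each direction of each list, and cell type markers were named too. Genes called in BAT were added after their values were seen. The members and lists were chosen with earlier results of these data known. Alternatives were other scalings, filters, covariates and tests (limma 3.58.1, DESeq2 1.42.0), a pseudocount of 5 and each lamb left out. The RNA integrity numbers came from the study's supplement. Leaving out lambs 240 and 245 together, TMM without lamb 240, and leaving out control lamb 238, were chosen after seeing the data. A planned search of promoters for motifs was not run, since no sequences were at hand. The result for 1 gene is not reported here.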

Additional observations from a re-analysis of the deposited data

Results flagged for a closer look

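HCRTR1 differed between the tissues in its response to cold by a test of the difference itself, with an interaction of 2.50.

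In 8 of 126 groups of 6 lambs, over 63 genes, 1 lamb lay far from the others in log2 BAT minus log2 thyroid, where chance gives about 1 in 20 groups. Among AT lambs, ALDOC was -5.39 in lamb 233 against -4.06 to -3.80 in the others, and VASP was -1.25 in the same lamb against -0.75 to -0.47. CIDEA, a lipid droplet protein of brown fat, was 1.84 in lamb 245 against 4.22 to 5.49, and TMEM182 was -4.85 in lamb 240 against 1.21 to 4.47. Among cold lambs, PIWIL3 was 2.90 in lamb 232 against 0.97 to 1.53, TMEM182 was 2.23 in lamb 235 against 0.48 to 1.11, L1CAM was 1.10 in lamb 239 against 2.59 to 3.48, and GSR was -5.48 in lamb 244 against -5.15 to -5.02.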

How the results depend on the processing

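The number of genes called for the interaction was 1 under both other scalings, both other filters, the adjusted p alone and limma. It was 72 by DESeq2, 0 with the RNA integrity number, 0 without the replicate block and 0 with the start controls in the fit (1 with the controls but not control 238), where 1156, 1222 and 669 genes had an unadjusted p under 0.05. Leaving out single lambs gave 0 to 3, leaving out lambs 240 and 245 together gave 20 (4 higher and 16 lower), and TMM without lamb 240 gave 2. HCRTR1 was positive in all 24 alternatives (2.33 to 2.73) and passed an adjusted p of 0.05 in 16. It did not with the RNA integrity number (2.50), without the replicate block (2.43) and with the start controls (2.50), and its range without single lambs was 2.33 to 2.63. In BAT the 34 calls became 150 by DESeq2, 22 with no filter and 19 with the RNA integrity number, 0 to 112 without single lambs, and 0 without lambs 240 and 245 together, where 3017 genes had an unadjusted p under 0.05. In thyroid tissue 0 genes were called in every alternative but DESeq2, which called 7. The interaction of TMEM182 was -0.76 with the replicate block, although its log2FC was the lower in thyroid tissue. It reversed to 3.64 without the block. Causes were not tested. Counting depth limits genes with few reads in BAT, such as KCNJ15 and SH2D4B.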
